A study of Homo sapiens with 12 samples.

Results

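SA at 500 µM was compared with its vehicle after 6 days in OCI-AML3 cells, a human line established from acute myeloid leukaemia. The comparison takes 6 of the 12 libraries of the series, 3 labelled SA and 3 labelled Vehicle, chosen by their labels alone. The cells of both groups carried no guide as far as the labels say, and the labels name neither the vehicle nor the compound behind the letters SA. The other 6 libraries are the guide arm, in which 7 days of doxycycline switched on a guide RNA, either against ALAS1 to knock the gene out (sgALAS1) or scrambled (sgSCR). Nothing in the labels says whether replicates were separate cultures, so p-values cover no more than the spread between libraries, which may be technical. The series is titled as a study of blocked heme synthesis, and the comparison asks which transcripts change under the compound.

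Heme is built in a chain of enzymes that starts with ALAS1 in mitochondria and ends with the insertion of iron by FECH. Heme in turn restrains ALAS1, releases the repressor BACH1 from genes such as HMOX1, and holds back a kinase that otherwise switches on the integrated stress response through eIF2α and ATF4. Leukaemic myeloblasts resemble arrested progenitors, and their maturation is followed through genes of monocytes and granulocytes such as CD14, S100A8 and S100A9.

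RNA was read with QuantSeq, a 3′ tag method in which a read stands for a transcript end and not for transcript length. The 6 libraries held between 4979473 and 7339843 assigned reads, and 12921 of 57905 gene identifiers had enough of them to be tested. Levels are normalised counts scaled to library size (CPM, reads of a gene per 1000000 reads of tested genes), and changes are log2 fold changes of SA over vehicle with their standard error (SE). The test is edgeR's quasi-likelihood test, its adjusted p-values follow Benjamini and Hochberg over all genes tested, and "past the test" means below 0.05. For the cell type markers in this paragraph only, CPM are reads per 1000000 assigned reads of the library, without normalisation. CD33, PTPRC, SPI1, CEBPA and HOXA9, genes of myeloid and blood cells, were read in every library. MPO was at 1.52 to 4.905 CPM, and CD34 was at 0 in 5 of the 6. Among 37 markers of red cell, lymphoid, stromal and epithelial types, 4 had enough reads to be tested, and HBB, GATA1, CD3E and CD2 had no read in any of the 6 libraries. Summed over each whole set, levels were 5.30 to 8.17 CPM in vehicle and 6.08 to 9.64 CPM in SA for the erythroid and megakaryocyte set, and 7.36 to 10.5 against 2.85 to 6.43 CPM for the stromal and epithelial set. The lymphoid set summed to 22.8 to 24.8 CPM in vehicle and 4.94 to 10.04 CPM in SA, which rests mainly on CD3D and NKG7; their part in the results was not tested. Mitochondrial transcripts took 11.4 to 12.7% of reads in vehicle and 13.1 to 13.8% in SA, and ENSG00000272060, an unnamed gene and the most abundant, 4.78 to 6.39% and 6.82 to 9.11% (exact permutation test, two-sided p = 0.1 for each, the smallest that 3 against 3 can give). Within groups, log2 CPM of libraries correlated across genes at 0.970 to 0.978, and between groups at 0.948 to 0.960.

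With SA, 1339 genes passed the test, 10.4% of those tested; 608 were higher (4.71%) and 731 lower (5.66%). More than 2-fold changes were seen for 171 of the higher and 317 of the lower genes. In 28.0% of all genes tested (3623) the SA libraries did not overlap the vehicle libraries, 13.4% higher and 14.6% lower with SA. Groups did not overlap for 1293 of the 1339 genes past the test. Separation of the groups, given below for single genes, is thus common and adds little to a call. Counts of list members below stand beside 4.71% higher and 5.66% lower over all genes. The lists were chosen with earlier results of these data known, so a larger share in a list is not independent support. Without any 1 of the 6 libraries, 531 genes passed in all 6 fits (4.11%), 207 of them higher and 324 lower. The count went from 785 without Vehicle replicate 2 and 800 without SA replicate 1 to 1595 without Vehicle replicate 1, and was 853 without SA replicate 3. The 6 genes just inside the threshold had adjusted p-values of 0.0498 to 0.05 and log2 fold changes of -1.70 to 0.68, and the 6 just outside had 0.05 to 0.0509 and -0.72 to 1.18. A test against a 1.5-fold change called 248 genes, 80 higher and 168 lower.

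**Figure D1:**
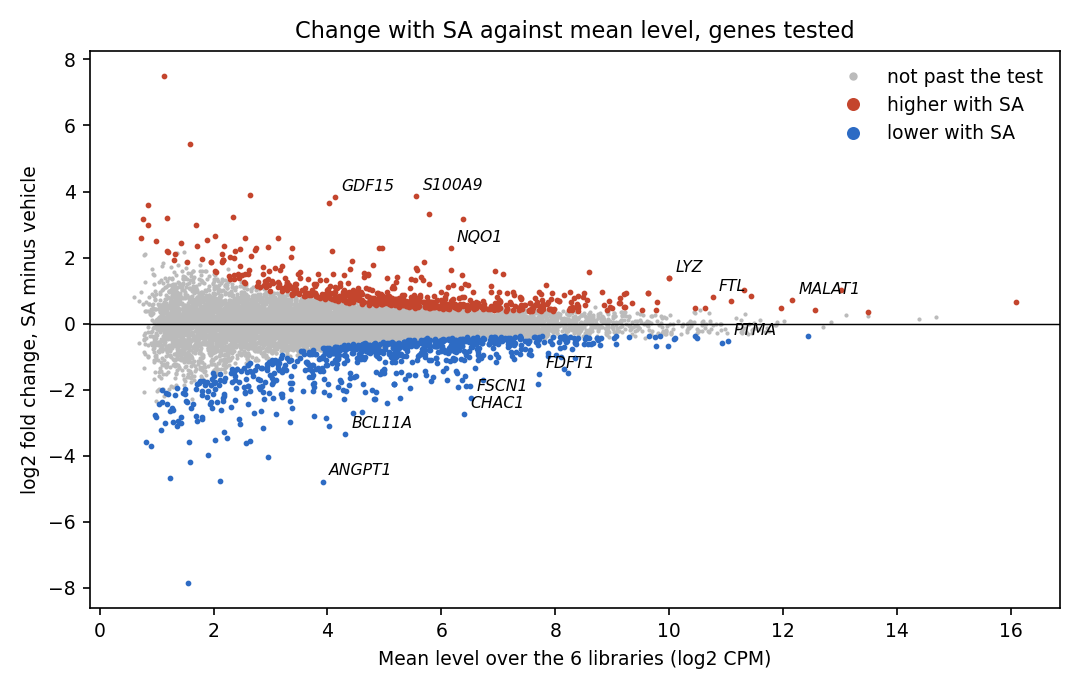
Change with SA (log2 fold change, vertical axis) against mean level over the 6 libraries (log2 CPM, horizontal axis) for the 12921 genes tested, with the 608 higher genes in red and the 731 lower genes in blue. S100A9, GDF15 and NQO1 are among the red points furthest up and ANGPT1, BCL11A and CHAC1 among the blue points furthest down.

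The calprotectin genes were among the largest rises; in bulk RNA, more cells of a kind and more RNA per cell cannot be told apart. S100A9, which encodes 1 partner of the calcium-binding pair calprotectin, was at 6.27, 6.65 and 5.18 CPM with vehicle and 78.8, 95.99 and 90.2 CPM with SA, and the other partner S100A8 at 11.7, 10.1 and 8.402 CPM and 94.8, 113 and 93.7 CPM. All SA libraries of both genes lay above all vehicle libraries, with log2 fold changes of 3.86 (SE 0.19) and 3.31 (SE 0.18). LYZ, the gene of lysozyme, was at 506, 548 and 653 CPM with vehicle and 1416, 1644 and 1377 CPM with SA (log2 fold change 1.38, SE 0.12). Of the 26 tested alarmins, lysozyme and secreted effectors, 16 rose and 3 fell, with a median log2 fold change of 0.65 against 0.00 over all genes tested. The number that rose was 12 to 16 when any single library was left out.

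Among the other effectors, ANXA1, an annexin that limits neutrophil recruitment, rose from 3.44 ± 0.28 to 16.9 ± 2.91 CPM (mean ± SD, n = 3), with 2.29 (SE 0.30) as its log2 fold change. S100A6, a further S100 protein, was at 220.1, 186 and 199 CPM with vehicle and 351, 387 and 364 CPM with SA. TCN1, which binds vitamin B12 in granules, went from 2.37, 2.56 and 2.32 CPM to 15.4, 16.2 and 12.7 CPM, and its SA values lay above every vehicle value (log2 fold change 2.60, SE 0.33). One S100 gene went the other way: S100A4 was at 175, 115 and 118 CPM with vehicle and at 53.7, 64.2 and 70.4 CPM with SA (log2 fold change -1.11, SE 0.16, adjusted p = 4.19e-05). So S100A6, S100A8 and S100A9 rose while S100A4 fell, each in all 6 fits that left out 1 library.

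**Figure D2:**
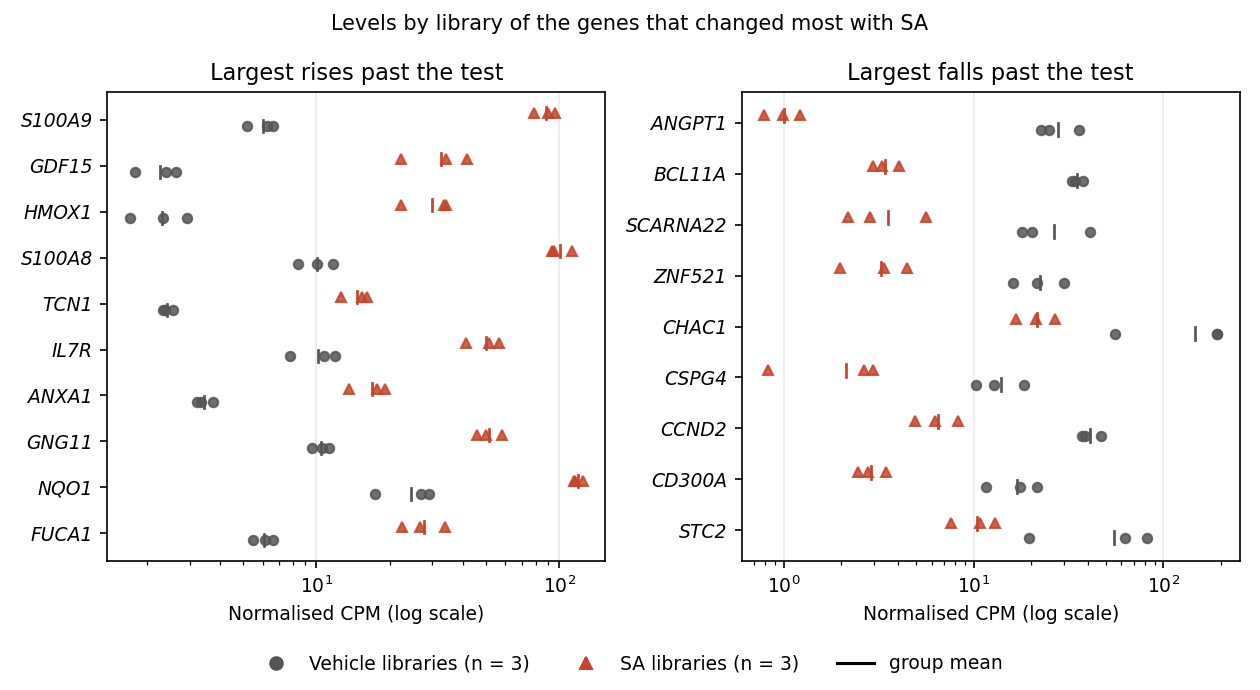
Normalised CPM (log axis) of named genes with the largest rises (left) and falls (right) among those that passed the test with and without each library, did not overlap and had at least 3 as mean log2 CPM; circles are the 3 vehicle libraries, triangles the 3 SA libraries and short lines group means. Vehicle replicate 3 is the low vehicle point of CHAC1 and STC2, while S100A9 and BCL11A show tight groups.

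Receptors of monocytes and macrophages rose in part. CD14, the co-receptor for bacterial lipopolysaccharide, was at 16.7, 29.9 and 20.6 CPM with vehicle and 69.7, 72.5 and 71.7 CPM with SA, and the 3 SA libraries were nearly equal (log2 fold change 1.68, SE 0.18, adjusted p = 9.08e-07). The haemoglobin scavenger CD163 was at 15.5, 9.72 and 12.3 CPM and 40.5, 44.3 and 43.4 CPM, and the scavenger receptor STAB1 at 38.2, 22.9 and 37.9 CPM and 79.6, 58.7 and 90.4 CPM. The groups of neither gene overlapped, with log2 fold changes of 1.76 (SE 0.20) and 1.21 (SE 0.19). FCER1G, the signalling chain of Fc receptors, rose by 1.19 (SE 0.15) and the IgG receptor FCGR2A by 0.76 (SE 0.14). In the other direction, the inhibitory receptors CD300A and LILRB4 had log2 fold changes of -2.55 (SE 0.33) and -0.79 (SE 0.15). In all, 7 of 25 tested surface receptors rose and 3 fell (28% and 12%, against 4.71% and 5.66% of all genes).

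The NADPH oxidase makes the oxidative burst of phagocytes. CYBB, its heme-carrying catalytic subunit, was at 123, 124 and 125 CPM with vehicle and 217, 204 and 216 CPM with SA, and NCF4, a cytosolic subunit, at 133, 127 and 114 CPM and 191, 227 and 218 CPM. Both were higher in every SA library, by 0.78 (SE 0.12) and 0.76 (SE 0.13) on the log2 scale. Of 10 tested genes of the primary granules, which fill at the promyelocyte stage, 3 fell (30% against 5.66% of all genes) and 7 did not pass. None was higher by edgeR's test or DESeq2, 1 was higher at an unadjusted p under 0.05, and 2 were called higher without Vehicle replicate 1. Their summed level with SA was 0.886 times that with vehicle (exact permutation test, two-sided p = 0.3). CTSG was at 421, 435 and 328 CPM with vehicle and 244, 206 and 242 CPM with SA (log2 fold change -0.78, SE 0.13), and PRTN3 fell, with a log2 fold change of -0.62 (SE 0.13).

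Myeloid transcription factors moved in both directions, 5 of 28 up and 4 down (17.9% and 14.3%, against 4.71% and 5.66% of all genes). SPI1, the factor PU.1 needed for all myeloid cells, was at 129, 91.1 and 88.7 CPM with vehicle and 219, 159 and 225 CPM with SA (log2 fold change 0.97, SE 0.16). ID2, which blocks E proteins, was at 169, 170.1 and 167 CPM and 315, 340.2 and 310.01 CPM (log2 fold change 0.93, SE 0.12), and its relative ID1 rose by 0.81 (SE 0.15). The rises of ID2, SPI1 and ID1 passed without any 1 library, and 0 of the 4 falls did so.

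Lysosomal genes rose in 11 of 68 cases, with a median log2 fold change of 0.22. Hydrolases made up 8 of the 11. FUCA1, which removes fucose from glycans, was at 6.13, 5.46 and 6.61 CPM with vehicle and 22.5, 33.8 and 26.8 CPM with SA, and the protease CTSL at 10.7, 8.19 and 11.3 CPM and 33.2, 31.8 and 29.8 CPM. The lowest SA value of each gene was above its highest vehicle value, with log2 fold changes of 2.19 (SE 0.24) and 1.65 (SE 0.21). CTSZ rose by 0.96 (SE 0.16), the sulfatase IDS by 1.07 (SE 0.19) and LAPTM5, a lysosomal membrane protein of blood cells, by 0.67 (SE 0.12). No lysosomal gene fell by edgeR's test or DESeq2, and 2 were lower at an unadjusted p under 0.05. Of the 15 tested subunits of the proton pump 0 rose by either tool, with 4 higher at an unadjusted p under 0.05. The number of lysosomal genes that rose was 7 without Vehicle replicate 2 or Vehicle replicate 3 and 6 without SA replicate 1.

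Chemokines and products of immediate early genes were among the rises. CXCL8, which draws neutrophils, was at 49.2, 71.3 and 62.03 CPM with vehicle and 161, 226 and 167 CPM with SA, and the growth factor HBEGF at 21.6, 17.4 and 15.2 CPM and 52.9, 38.7 and 50.6 CPM. Their groups stood apart, by 1.60 (SE 0.16) and 1.39 (SE 0.19) on the log2 scale. CCL2, a monocyte attractant, was low throughout, at 1.67, 1.02 and 2.15 CPM with vehicle and 9.88, 12.4 and 7.397 CPM with SA (log2 fold change 2.60, SE 0.43), and CXCL1 rose by 1.02 (SE 0.21). TNFAIP3, which encodes the NF-κB brake A20, was lower, at 30.6, 32.6 and 31.5 CPM with vehicle and 4.54, 10.5 and 4.603 CPM with SA (log2 fold change -2.28, SE 0.27). Of 24 tested chemokine, cytokine and NF-κB feedback genes 9 rose and 3 fell, with 5 to 9 rises when 1 library was left out and the fewest without SA replicate 1.

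JUN, a subunit of AP-1, was at 18.8, 27.6 and 23.4 CPM with vehicle and 62.6, 84.4 and 67.2 CPM with SA (log2 fold change 1.62, SE 0.17, adjusted p = 8.43e-07). ZFP36L1, which marks mRNAs for decay, was at 12.4, 40.8 and 14.3 CPM with vehicle, where replicate 2 stood above the others, and at 68.5, 95.4 and 78.2 CPM with SA (log2 fold change 1.85, SE 0.28). DUSP6, a phosphatase induced by ERK that switches ERK off, was at 15.3, 17.4 and 7.87 CPM and 36.2, 40.3 and 32.4 CPM (log2 fold change 1.41, SE 0.23). All SA values of these genes were above all vehicle values, and JUNB and the ERK inhibitor SPRED1 rose too, by 0.71 (SE 0.13) and 0.80 (SE 0.15). Of 28 tested genes of ERK feedback and immediate early response, 10 rose and 2 fell, with 6 to 8 rises when 1 library was left out and the fewest without SA replicate 1 or SA replicate 2.

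**Figure D3:**
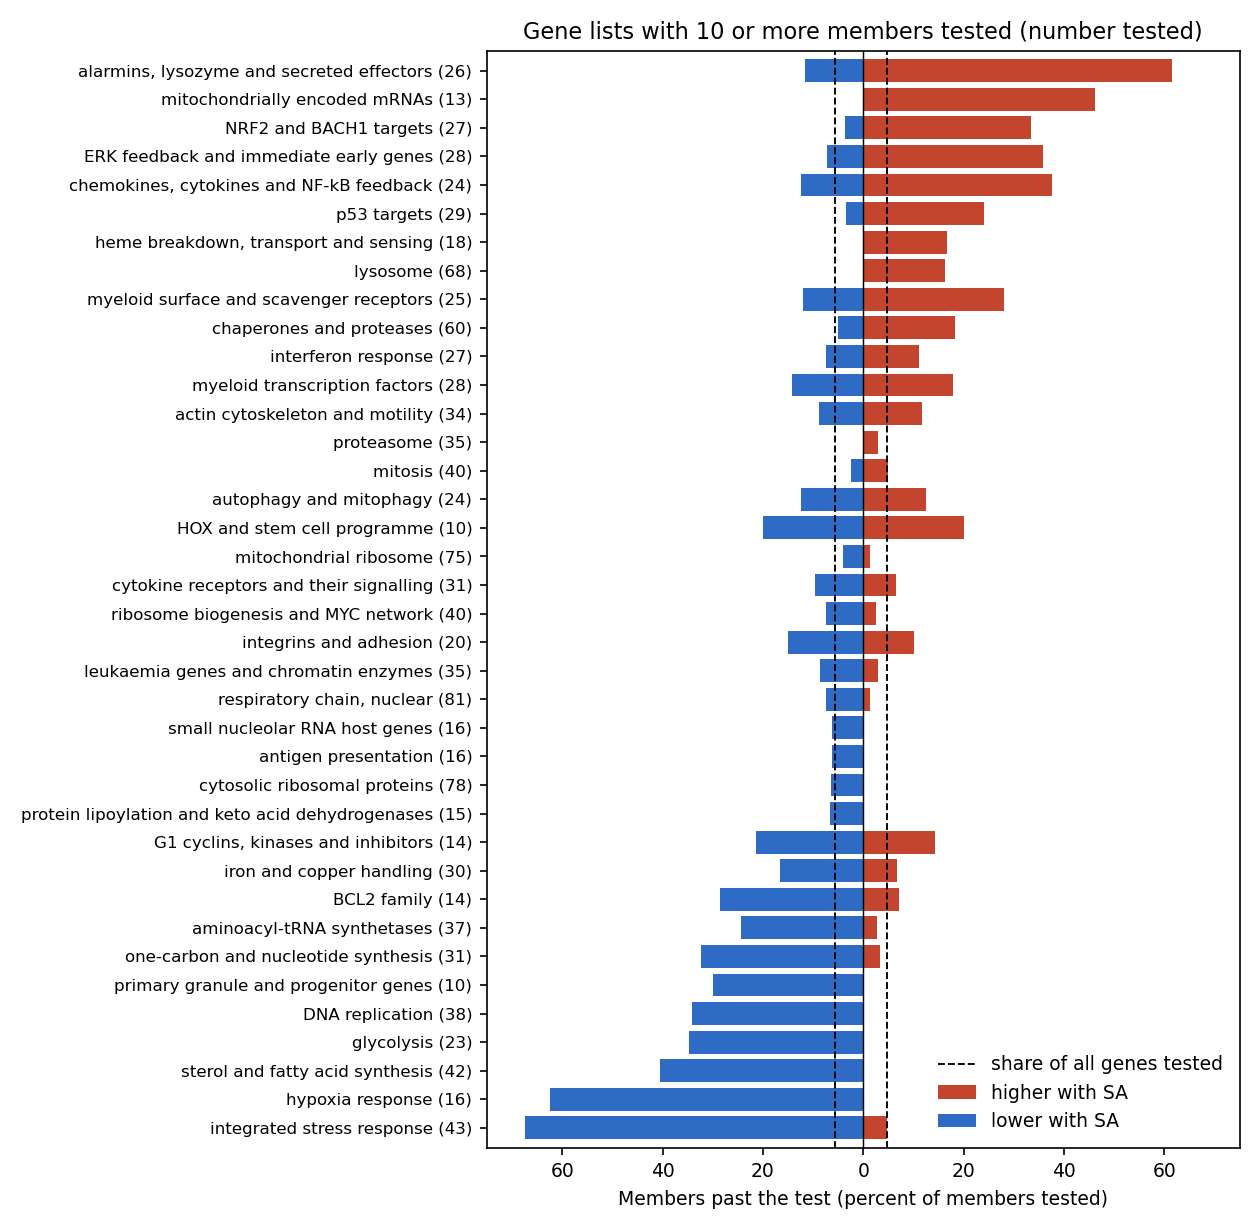
Share of tested members past the test in each list with at least 10 tested members (bars to the right, higher with SA; bars to the left, lower; number tested in brackets), with dashed lines at the shares over all genes tested, 4.71% higher and 5.66% lower. Secreted effectors reach furthest to the right, and stress response, hypoxia and sterol genes furthest to the left.

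Within heme synthesis 1 of the 8 tested enzymes changed. ALAS1 (chromosome 3), the first enzyme, was at 37.9, 36.7 and 31.5 CPM with vehicle and 108, 104 and 113 CPM with SA, log2 fold change 1.61, SE 0.14, adjusted p = 4.07e-08. The 3 SA libraries were within a narrow range and all far above vehicle. The other 7 enzymes had log2 fold changes of -0.53 to 0.39 with adjusted p-values of 0.271 or more. HMOX1, which opens the heme ring, was at 2.92, 1.71 and 2.32 CPM with vehicle and 22.3, 34.2 and 33.5 CPM with SA (log2 fold change 3.67, SE 0.29, adjusted p = 5.3e-09), and SA replicate 1 was the lowest of the SA values. Of 18 genes of heme breakdown, transport and sensing, HMOX1, BLVRB and SLC48A1 rose. The calls of BLVRB (0.67, adjusted p up to 0.16) and SLC48A1 (0.68, up to 0.0962) were lost without single libraries, the highest values being without Vehicle replicate 3 and without SA replicate 2. Of the 6 tested heme sensors and regulators 0 passed by edgeR's test or DESeq2, and 0 had an unadjusted p under 0.05; among them the repressor BACH1 was at 16.6, 24.2 and 16.4 CPM with vehicle and 14.2, 15.8 and 17.3 CPM with SA. The transferrin receptor TFRC, which brings in iron, did not pass (log2 fold change -0.20, SE 0.21, adjusted p = 0.616).

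Of 27 tested targets of NRF2 and BACH1, which act through antioxidant elements in opposite directions, 9 rose and 1 fell. Their median log2 fold change was 0.09, with 19 above 0 and 8 below, and DESeq2 called 9 higher and 0 lower. When 1 library was left out, 5 to 9 rose (fewest without Vehicle replicate 2). NQO1, a quinone reductase, was at 27.01, 17.4 and 28.96 CPM with vehicle and 116, 125 and 116 CPM with SA (log2 fold change 2.28, SE 0.17, adjusted p = 2.42e-09). The ferritin chains FTH1 and FTL, which store iron, were at 567, 568 and 502 CPM and 1395, 1179 and 1237 CPM with vehicle and at 1029, 1055 and 1009 CPM and 2073, 2239.9 and 2299 CPM with SA. No library of one group overlapped the other in these 3 genes, and the ferritin log2 fold changes were 0.92 (SE 0.11) and 0.79 (SE 0.11). ME1, which makes NADPH, rose by 0.97 (SE 0.20). Among 16 copper genes 4 were lower, and 3 of the 4 were metallothioneins, small proteins that bind zinc and copper. MT1G had a log2 fold change of -0.91 (SE 0.13), MT1F of -0.96 (SE 0.15) and MT1E of -0.62 (SE 0.12), each also past the test without any 1 library. Of 15 genes of protein lipoylation and the keto acid dehydrogenases, the enzymes tied to copper-dependent cell death, 1 passed: BCKDHA was at 109, 94.3 and 82.1 CPM with vehicle and 51.4, 48.6 and 67.4 CPM with SA (log2 fold change -0.77, SE 0.15). The other 14 had log2 fold changes of -0.50 to 1.22 with adjusted p-values of 0.069 or more, among them FDX1 (0.15), LIAS (-0.46) and DLAT (-0.50). With all 12 libraries in the fit, DLAT passed (log2 fold change -0.51, adjusted p = 0.0437). The 1 fall among the 15 is 6.67%, near the 5.66% of all genes.

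The integrated stress response was lower with SA in most of its genes. When eIF2α is phosphorylated, ATF4 is translated and switches on enzymes that make amino acids, transporters that bring them in, tRNA synthetases that load them, and feedback genes. Of 43 tested genes of this response 29 fell and 2 rose, with a median log2 fold change of -0.95. Of the 29, 23 fell in all 6 fits that left out 1 library. Summed over the 43, levels were 4906, 5607 and 2994 CPM with vehicle and 2459, 2513 and 2351 CPM with SA. Vehicle replicate 3 thus lay nearer to the SA libraries than to the other vehicle libraries. Each fit that left out 1 library kept Vehicle replicate 1, Vehicle replicate 2 or both. By role, 4 of 8 transcription factors, 12 of 14 amino acid enzymes, 5 of 9 transporters and 8 of 12 feedback and other genes were lower. Cytosolic tRNA synthetases were lower in 9 of 20 cases and higher in 1, and 0 of 17 mitochondrial ones passed by edgeR's test or DESeq2, 4 of them being lower at an unadjusted p under 0.05.

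The motif that ATF4 binds with C/EBP partners was searched for in promoter windows. The 4 windows below are the 250 bases before the gene start of 4 members that fell, from RefSeq (GRCh38.p14), each on the gene's own strand and shown because it holds the letters TGATGNAAN, or their reverse complement, in capitals.
CHAC1: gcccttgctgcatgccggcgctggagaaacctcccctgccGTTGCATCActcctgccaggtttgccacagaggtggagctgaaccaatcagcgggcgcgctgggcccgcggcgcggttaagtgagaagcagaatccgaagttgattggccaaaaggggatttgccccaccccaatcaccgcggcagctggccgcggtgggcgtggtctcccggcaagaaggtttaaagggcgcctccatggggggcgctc
ASNS: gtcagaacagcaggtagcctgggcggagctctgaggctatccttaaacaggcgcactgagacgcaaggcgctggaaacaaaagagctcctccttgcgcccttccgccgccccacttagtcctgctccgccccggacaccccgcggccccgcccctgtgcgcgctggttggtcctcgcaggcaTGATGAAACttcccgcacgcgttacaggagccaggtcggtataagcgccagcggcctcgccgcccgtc
AARS1: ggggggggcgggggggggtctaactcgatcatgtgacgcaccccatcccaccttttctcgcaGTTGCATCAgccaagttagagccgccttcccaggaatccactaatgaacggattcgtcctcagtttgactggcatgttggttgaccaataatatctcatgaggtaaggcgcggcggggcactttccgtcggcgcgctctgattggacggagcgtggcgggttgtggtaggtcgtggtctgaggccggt
IARS1: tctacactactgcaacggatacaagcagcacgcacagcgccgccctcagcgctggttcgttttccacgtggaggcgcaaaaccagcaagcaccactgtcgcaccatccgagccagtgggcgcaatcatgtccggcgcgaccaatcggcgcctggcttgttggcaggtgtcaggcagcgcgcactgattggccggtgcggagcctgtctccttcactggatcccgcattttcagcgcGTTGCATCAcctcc
The CHAC1 window lies at chr15:40953221-40953470 on the plus strand with its match starting 210 bases before the gene start. The other windows are on the minus strand, ASNS at chr7:97872409-97872658 with the match 68 bases before the start, AARS1 at chr16:70289507-70289756 with the match 188 bases before it and IARS1 at chr9:92293698-92293947 with the match 14 bases before it. CHAC1, AARS1 and IARS1 hold the same letters, GTTGCATCA, and ASNS holds TGATGAAAC. Over the full window of 300 bases, 250 before and 50 after the start, the motif was present on either strand in 4 of the 7 tRNA synthetase promoters of genes that fell (57.1%), and in 3 of the 22 of genes that did not pass (13.6%). In the stress response list it was in 3 of 21 promoters of genes that fell (14.3%) and 3 of 12 of genes that did not pass (25%). Among all 9327 tested genes with a promoter in the table the share was 1.76%, among those that rose 1.55%, and among those that fell 3.99%; over all 27305 promoters it was 3.67%.

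Among the enzymes, CHAC1, which breaks down glutathione, was at 192, 191 and 55.6 CPM with vehicle and 21.3, 16.8 and 26.8 CPM with SA. Vehicle replicate 3 was far below the others and still above all SA libraries (log2 fold change -2.75, SE 0.30, adjusted p = 8.66e-07). ASNS, which makes asparagine, was at 127, 203 and 50.2 CPM and 43.3, 45.97 and 38.6 CPM (log2 fold change -1.58, SE 0.28, adjusted p = 0.000443). PSAT1, of the serine pathway, was at 322, 449.5 and 194 CPM with vehicle and 93.8, 102 and 75.3 CPM with SA (log2 fold change -1.83, SE 0.20). The order of the vehicle libraries was again replicate 2 high and replicate 3 low, and the SA libraries lay close together below them. PHGDH, the first enzyme of serine synthesis, had a log2 fold change of -1.72 (SE 0.23), PCK2 of -1.57 (SE 0.22) and GPT2 of -1.56 (SE 0.22). In sgSCR, which is normalised with all 12 libraries, ASNS was at 50.2, 104 and 73.2 CPM, within the vehicle range, and CHAC1 at 13.9, 61.2 and 29.9 CPM, with 2 of the 3 libraries below the lowest vehicle library. The part of the spread between vehicle libraries in these falls was not tested.

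Of the transcription factors, ATF4 itself was at 471, 537 and 306 CPM with vehicle and 216, 232 and 192 CPM with SA (log2 fold change -1.04, SE 0.16, adjusted p = 6.49e-05). JDP2 fell, with a log2 fold change of -1.11 (SE 0.21). DDIT3, which encodes CHOP, was at 83.8, 115 and 63.6 CPM and 58.5, 54.5 and 44.1 CPM; its log2 fold change of -0.75 lost its call in 2 fits (adjusted p = 0.105 without Vehicle replicate 2). Without Vehicle replicate 2, 2 of the factors fell in place of 4. ATF5 rose by 0.61, with its call lost in 2 fits (adjusted p up to 0.1, without SA replicate 1). The transporter SLC38A2, which imports small neutral amino acids, was at 170.4, 192 and 145 CPM with vehicle and 84.9, 84.04 and 81.7 CPM with SA (log2 fold change -1.02, SE 0.13), a case with a narrow vehicle range. SLC1A4 fell, with a log2 fold change of -0.85 (SE 0.16).

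The feedback genes held the exception. GDF15, a secreted hormone of stressed cells and itself a known ATF4 and CHOP target, was at 2.65, 2.39 and 1.79 CPM with vehicle and 41.7, 22.3 and 34.2 CPM with SA (log2 fold change 3.82, SE 0.29, adjusted p = 3.92e-09). Every SA value was above every vehicle value, with SA replicate 2 the lowest of the 3. DDIT4, an inhibitor of mTORC1, went the other way, from 140.4, 234 and 51.7 CPM to 36.2, 38.1 and 40.8 CPM (log2 fold change -1.89, SE 0.30), as did the secreted STC2, from 62.4, 81.7 and 19.7 CPM to 10.9, 12.96 and 7.56 CPM (log2 fold change -2.40, SE 0.33). EIF4EBP1, which holds back translation and lies on chromosome 8, had a log2 fold change of -1.20 (SE 0.19). The 2 genes that rose, GDF15 and ATF5, thus stood against 29 that fell.

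Of the tRNA synthetases, GARS1 (glycine) was at 167, 179 and 117 CPM with vehicle and 68.2, 79.4 and 81.9 CPM with SA, and AARS1 (alanine) at 231, 232 and 134 CPM and 100.4, 97.8 and 104 CPM. For both, Vehicle replicate 3 was the lowest vehicle library and above every SA library, and the log2 fold changes were -1.01 (SE 0.15) and -0.98 (SE 0.16). EPRS1 had -0.70 (SE 0.14), CARS1 -0.86 (SE 0.17), MARS1 -0.83 (SE 0.17) and IARS1 -0.61 (SE 0.13). RARS1, for arginine, was the 1 that rose (0.42), and that call was lost in 5 of the 6 fits that left out a library (adjusted p up to 0.225, without Vehicle replicate 2).

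**Figure D4:**
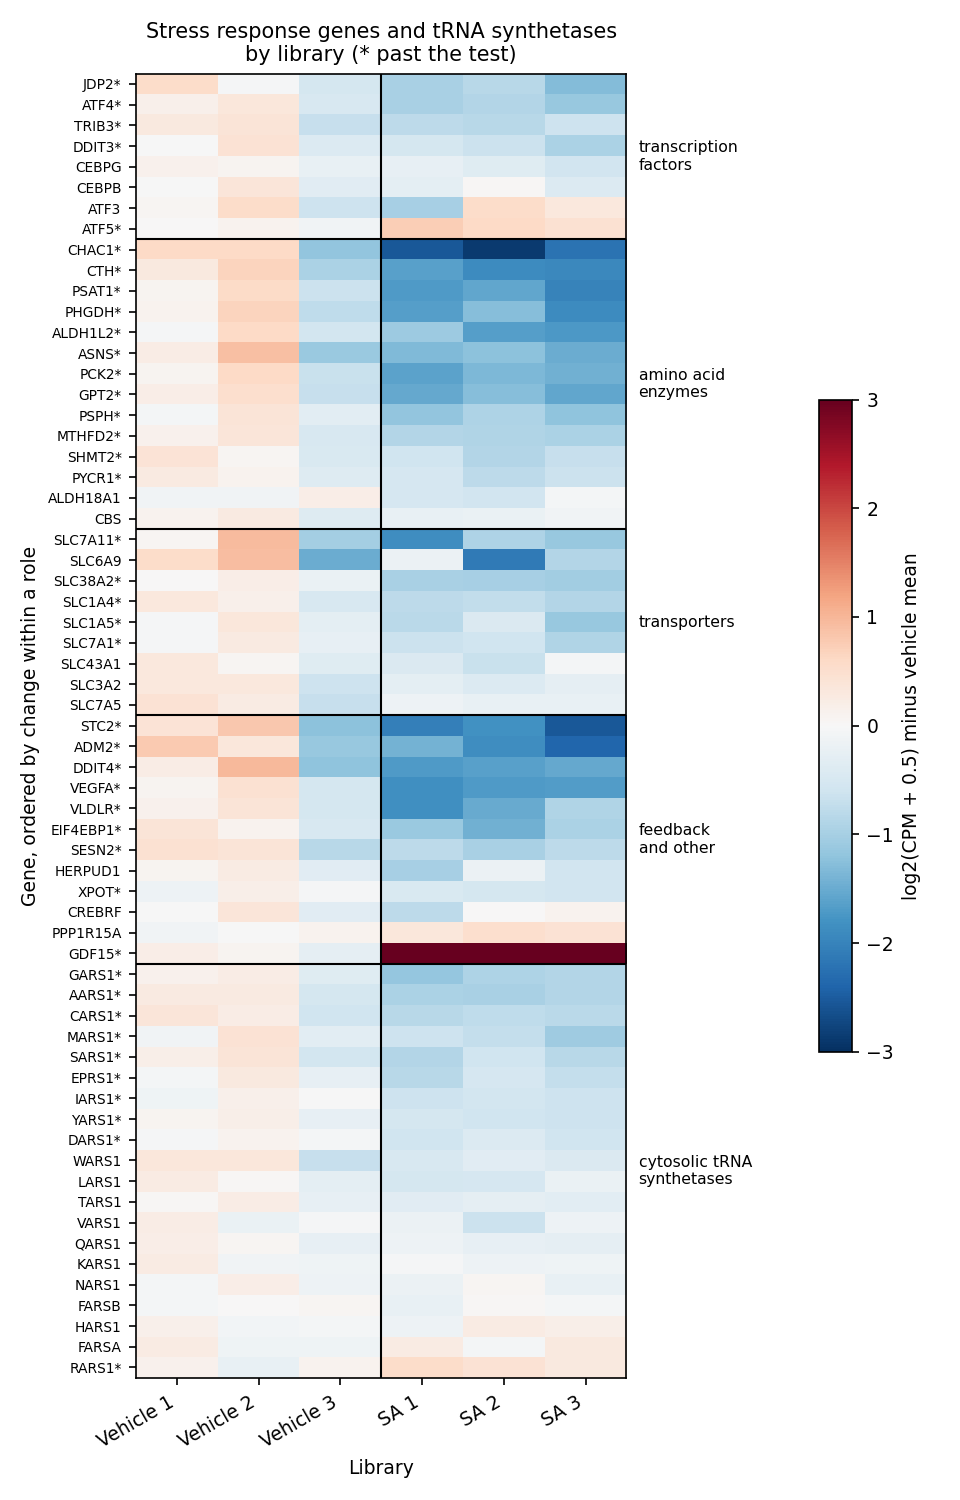
Level of each tested gene of the integrated stress response and each cytosolic tRNA synthetase in the 6 libraries, as log2(CPM + 0.5) minus the vehicle mean (colour, red higher and blue lower), grouped by role, with asterisks for genes past the test. Most rows are blue in all 3 SA libraries, Vehicle replicate 3 is paler or blue beside the other vehicle libraries, and GDF15 is the red row; colours end at 3 and -3.

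One-carbon enzymes, which feed purine and thymidylate synthesis, fell in 7 of 12 cases, and 4 of these fell in all 6 fits that left out 1 library. MTHFD1L, a mitochondrial enzyme of formate release, was at 44.1, 59.02 and 43.4 CPM with vehicle and 20.9, 21.1 and 24.8 CPM with SA (log2 fold change -1.13, SE 0.18). MTHFD2 (-0.96) and SHMT2 (-0.76), which are also ATF4 targets, fell as well, and TYMS, which makes thymidylate, was at 80.1, 81.5 and 105 CPM and 54.3, 54.9 and 48.2 CPM (log2 fold change -0.76, SE 0.15). Of 38 tested DNA replication genes 13 fell, with a median of -0.43; 0 rose by edgeR's test or DESeq2, and 0 were higher at an unadjusted p under 0.05. MCM3 of the replicative helicase was at 92.04, 124 and 142 CPM with vehicle and 58.1, 73.1 and 47.2 CPM with SA (log2 fold change -1.01, SE 0.17), and the primase subunit PRIM1 fell, with a log2 fold change of -0.94 (SE 0.20). MCM6 had -0.57 (SE 0.13), and MCM4, on chromosome 8, -0.59 (SE 0.13). The count of replication genes that fell was 5 to 11 when 1 library was left out. It was 8 without Vehicle replicate 3, 5 when SA replicate 1 was dropped and 7 when SA replicate 3 was. Of 40 mitosis genes 2 rose (5%) and 1 fell (2.5%), near or below the 4.71% and 5.66% of all genes. Of these, UBE2S, which extends ubiquitin chains for the anaphase complex, was the 1 that passed in all fits (log2 fold change 0.62, SE 0.12).

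Sterol and fatty acid synthesis was lower, in 17 of 42 tested genes with a median of -0.42. None was higher by edgeR's test or DESeq2, and 1 was higher at an unadjusted p under 0.05. In the mevalonate and sterol branch 10 of 21 fell. HMGCS1, an early enzyme, was at 110.1, 142 and 157 CPM with vehicle and 51.2, 61.97 and 49.97 CPM with SA (log2 fold change -1.33, SE 0.15, adjusted p = 1.83e-06), and FDPS, which makes farnesyl diphosphate, at 239, 234 and 275 CPM and 113, 147 and 129 CPM (log2 fold change -0.94, SE 0.13). The isomerase EBP was at 25.3, 32.2 and 36.5 CPM and 7.51, 8.71 and 6.74 CPM (log2 fold change -2.03, SE 0.23). In all 3 genes every SA library was below every vehicle library. FDFT1 (-1.52) and SQLE (-0.94), the squalene enzymes, also fell and lie on chromosome 8, where the median of all tested genes was -0.25. INSIG1, a sterol sensor that is itself sterol-regulated, fell too, with a log2 fold change of -0.87 (SE 0.13). In the fatty acid branch 6 of 11 fell. SCD, which desaturates stearate, was at 354, 436 and 444 CPM with vehicle and 161, 153 and 166 CPM with SA (log2 fold change -1.36, SE 0.13, adjusted p = 7.72e-08), and FADS1 had -0.57 (SE 0.12). The list held 12 to 18 falls when 1 library was left out. The sterol element TCACNCCAC, searched on both strands of the same windows, was in 0 of the 13 promoters of members that fell and in 1.08% of the promoters of all genes tested.

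Of the 16 tested genes of the hypoxia response 10 fell, with a median of -0.74; 0 rose by edgeR's test or DESeq2, and 0 were higher at an unadjusted p under 0.05. BNIP3, a mitophagy receptor induced by HIF1, was at 29.5, 32.8 and 20.9 CPM with vehicle and 7.51, 7.49 and 7.23 CPM with SA (log2 fold change -1.90, SE 0.24, adjusted p = 5.64e-06). VEGFA, the vascular growth factor, was at 32.3, 41.8 and 20.9 CPM and 8.0995, 9.11 and 9.21 CPM (log2 fold change -1.84, SE 0.24), and P4HA1, which hydroxylates collagen, at 118, 171 and 129.96 CPM and 69.9, 63.99 and 68.4 CPM (log2 fold change -1.05, SE 0.15). The SA libraries of all 3 genes lay in a narrow band below every vehicle library. ZNF395 (-1.69), BNIP3L (-1.07) and NDRG1 (-0.89) fell too, and all 3 are on chromosome 8. Of 23 glycolysis genes 8 were lower, with a median of -0.33, and 2 were higher at an unadjusted p under 0.05, of which 0 passed by edgeR's test or DESeq2. The aldolase ALDOC was at 64.3, 68.9 and 57.7 CPM with vehicle and 23.7, 21.7 and 20.4 CPM with SA (log2 fold change -1.54, SE 0.16). PDK1, which shuts pyruvate dehydrogenase, had -0.89 (SE 0.18), LDHA -0.61 (SE 0.11) and PGK1 -0.60 (SE 0.13). Without Vehicle replicate 2, and likewise without SA replicate 1, 5 glycolysis genes fell.

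BCL11A, a repressor active in early blood progenitors, had one of the largest falls, from 37.6, 32.9 and 34.3 CPM with vehicle to 2.96, 4.05 and 3.29 CPM with SA (log2 fold change -3.34, SE 0.24, adjusted p = 2.12e-09). ANGPT1, a ligand of the TIE2 receptor, on chromosome 8, went from 35.8, 25.1 and 22.5 CPM to 0.7902, 1.22 and 0.986 CPM (log2 fold change -4.78, SE 0.34, adjusted p = 1.42e-09). CCND2, a D-type cyclin, went from 37.3, 47.1 and 38.8 CPM to 4.94, 8.303 and 6.25 CPM (log2 fold change -2.66, SE 0.22). The SA values of all 3 were a small share of the vehicle values in every library. ZNF521, a stem cell co-factor, had -2.81 (SE 0.32), and the proteoglycan CSPG4 -2.73 (SE 0.40). FSCN1, which bundles actin, was at 181, 133 and 135 CPM with vehicle and 27.5, 28.1 and 38.96 CPM with SA (log2 fold change -2.24, SE 0.17), and MLC1 at 115, 117 and 136 CPM and 31.8, 33.2 and 32.9 CPM (log2 fold change -1.91, SE 0.14). SCARNA22, a guide RNA of Cajal bodies, had -2.87 (SE 0.34); it lies inside another gene, and the reads of both cannot be told apart here. These genes are named for the size of their falls and are not a list: of 35 tested leukaemia genes and chromatin enzymes 1 rose and 3 fell (8.57% lower against 5.66% of all genes), and 0 fell without Vehicle replicate 3 or without SA replicate 3.

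FLT3, the growth factor receptor on chromosome 13, was at 44.4, 41.6 and 49.3 CPM with vehicle and 18.2, 14.6 and 15.3 CPM with SA (log2 fold change -1.49, SE 0.18, adjusted p = 4.58e-06). IL3RA, the interleukin 3 receptor chain, had -1.07 (SE 0.23), and PIM1, a kinase downstream of such receptors, -1.36 (SE 0.21). IL7R rose in contrast, from 7.797, 10.7 and 11.98 CPM to 51.4, 56.7 and 41.3 CPM (log2 fold change 2.30, SE 0.21), and GNG11, a G protein subunit, from 9.61, 10.6 and 11.3 CPM to 45.8, 57.9 and 49.8 CPM (log2 fold change 2.29, SE 0.19). Of 10 tested HOX and stem cell genes, 2 cofactors fell in all fits, and HOXA10 and HOXA11 rose. The cofactors were PBX3 (log2 fold change -1.10, SE 0.15) and MEIS2 (log2 fold change -1.26, SE 0.26). The call of HOXA10 was lost without any single library except Vehicle replicate 1 (adjusted p up to 0.168, without SA replicate 3). That of HOXA11 was lost without Vehicle replicate 2 (adjusted p = 0.0815) or SA replicate 3 (adjusted p = 0.0749). BCL2, which keeps cells alive, was at 104, 129 and 107 CPM with vehicle and 52.4, 28.4 and 41.1 CPM with SA (log2 fold change -1.48, SE 0.17, adjusted p = 2.93e-06). MYC, on chromosome 8, was at 117, 122 and 90.3 CPM and 41.3, 58.3 and 56.5 CPM (log2 fold change -1.08, SE 0.16), and its antagonist MXI1 fell as well (log2 fold change -0.99, SE 0.19).

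In the guide arm, 47 of the genes tested here were nearly without reads, with at most 3 over the 3 sgALAS1 libraries and a mean of at least 5 CPM in sgSCR. With SA, 38 of the 47 were lower and 0 higher by edgeR's test or DESeq2 (0 higher at an unadjusted p under 0.05), with a median log2 fold change of -2.06, and 2 of the 12 genes with the largest falls belong to them, ZNF521 and an unnamed identifier. The number lower was 35 to 38 when 1 library was left out, and 5.66% of all genes tested were lower. The 47 are not independent: 4 lie on chromosome Y, and 5 form 2 sets of neighbours whose levels were within 5% of each other in every library. With Y left out and each set counted once, 31 of 40 were lower. Chromosomes differed as well. All 7 tested genes of chromosome Y had negative log2 fold changes with SA, from -2.65 to -1.45 with a median of -2.06, and 5 passed the test. Tested genes of chromosome 8 had a median log2 fold change of -0.25 with SA, with 74 of 431 lower (17.2%), and those of chromosome 13 a median of -0.37, with 33 of 219 lower (15.1%). In the guide arm chromosomes 8 and 13 had medians of -0.34 and -0.35. The guide median of Y was -9.57, a fitted value, with 4 of its genes among the 47 nearly without reads. Whether sgALAS1 cells differ from sgSCR cells in more than the guide was not tested. Without genes of chromosomes 8, 13 and Y, 1203 genes passed. The part of the shifts of whole chromosomes in the falls of single genes on them was not tested.

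**Figure D5:**
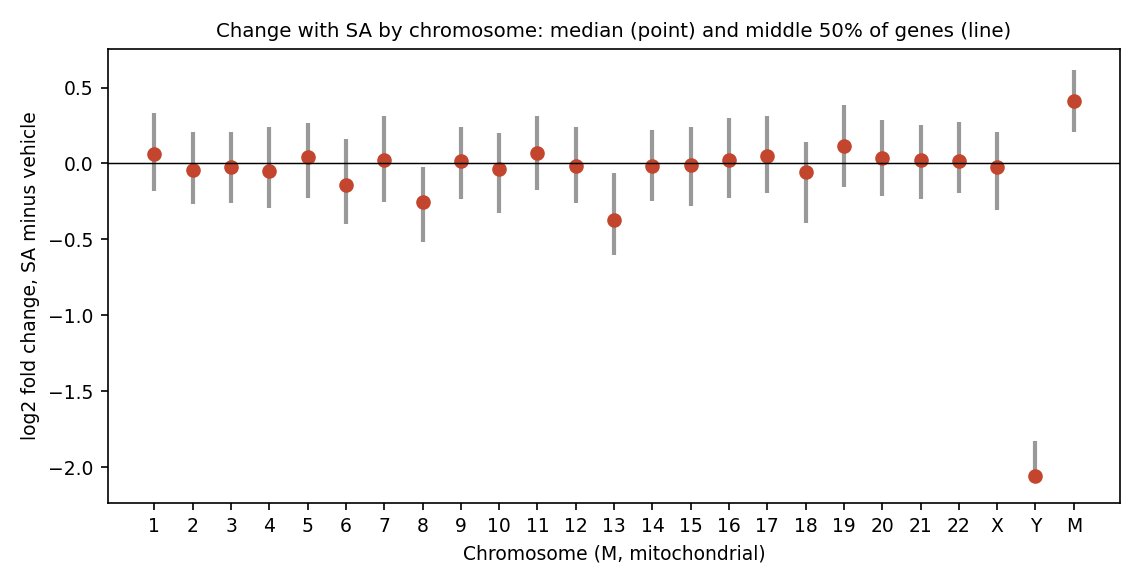
Median log2 fold change of SA over vehicle (points) and the middle 50% of tested genes (lines) for each chromosome. The 7 tested genes of Y lie lowest, with a median of -2.06. Chromosomes 8 and 13 lie below 0 with medians of -0.25 and -0.37, and mitochondrial genes (M) lie above it at 0.41.

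Among 29 p53 targets 7 rose and 1 fell, and 4 rose without Vehicle replicate 3. CDKN1A, which encodes the cell cycle inhibitor p21, was at 160.4, 121 and 145 CPM with vehicle and 258, 299.9 and 275 CPM with SA (log2 fold change 0.97, SE 0.13, adjusted p = 1.9e-05). RPS27L rose by 0.82 (SE 0.14), ZMAT3 by 0.69 (SE 0.16), and the p53 ubiquitin ligase MDM2 had 0.60 (SE 0.15). SESN2, which is also a target of ATF4, was the 1 that fell (log2 fold change -0.95, SE 0.21); DESeq2 did not call it (adjusted p = 0.107). RB1, a brake on the cell cycle on chromosome 13, was lower (log2 fold change -0.80, SE 0.17). Of 60 chaperones and proteases 11 rose and 3 fell (18.3% and 5%, against 4.71% and 5.66% of all genes). However, 4 rose without Vehicle replicate 2 and 6 without SA replicate 1. FKBP4, a partner of HSP90, was at 98.4, 75.9 and 118 CPM with vehicle and 183, 182 and 194 CPM with SA (log2 fold change 0.93, SE 0.14), and AHSA1, which stimulates HSP90, rose by 0.67 (SE 0.14). In the endoplasmic reticulum, SDF2L1 and CRELD2 rose by 0.80 (SE 0.17) and 1.03 (SE 0.22) while XBP1, a factor of the unfolded protein response, was at 173, 188 and 149.8 CPM with vehicle and 80.6, 83.03 and 65.1 CPM with SA (log2 fold change -1.16, SE 0.14). Of 11 mitochondrial chaperones and proteases 0 passed by edgeR's test or DESeq2, and 1 was lower at an unadjusted p under 0.05.

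Mitochondrially encoded mRNAs rose in 6 of 13 cases with a median of 0.32, and the nuclear genes of the respiratory chain had 1 rise and 6 falls among 81 with a median of -0.10. Those falls are 7.41%, against 5.66% of all genes tested, and were 1 without Vehicle replicate 3, 2 without SA replicate 1 or SA replicate 3, 3 without Vehicle replicate 2 and up to 9 in the other fits, with 0 to 3 rises. MT-ATP8 was at 2131, 1739 and 2092 CPM with vehicle and 4359.7, 3124 and 3147 CPM with SA (log2 fold change 0.83, SE 0.13). Of the 13 genes it was the 1 past the test without any 1 library. Whether its reads come from a transcript of its own was not tested. The tRNA gene MT-TF was at 2179, 1525 and 1343 CPM and 3643, 2699.8 and 3859 CPM (log2 fold change 1.02, SE 0.15). The number of mitochondrial mRNAs that rose was 2 without Vehicle replicate 2, 1 without SA replicate 1, 3 without SA replicate 3 and 9 without Vehicle replicate 1. NDUFAB1 of complex I, which also carries the chain from which lipoic acid is made, fell, with a log2 fold change of -0.52 (SE 0.13). Of 78 cytosolic ribosomal protein genes 5 fell, 6.41% against 5.66% of all genes tested, and without single libraries that number was 0 to 12. Among the most abundant transcripts, the nuclear RNA MALAT1 was at 3001, 4389.6 and 2985 CPM with vehicle and 5862, 5818 and 5333 CPM with SA (log2 fold change 0.71, SE 0.13). PTMA, a small acidic nuclear protein of dividing cells, was at 2453, 2379 and 2543 CPM and 1712, 1835 and 1593 CPM (log2 fold change -0.52, SE 0.11), TPT1, on chromosome 13, had -0.57 (SE 0.11), and the leukocyte mucin SPN -0.67 (SE 0.14).

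Finally the SA effect was set against the effect of the guide in its own arm by testing the difference of the 2 log2 fold changes over all 12 libraries. The difference passed for 164 of 13832 genes (1.19%), 105 with the SA effect above the guide effect and 59 below, while 1622 genes passed for the guide alone (11.7%). ALAS1 rose with SA and was lower with its guide, at 38.6, 41.9 and 37.4 CPM in sgSCR and 26.2, 26.3 and 27.3 CPM in sgALAS1. Its difference was 2.16 (adjusted p = 1.14e-08). S100A9 was at 7.97, 3.86 and 6.94 CPM in sgSCR and 36.4, 33.8 and 36.3 CPM in sgALAS1, so that its rise was 1.33 larger on the log2 scale with SA (adjusted p = 0.0127), a call lost without sgSCR replicate 1 or sgSCR replicate 3 (adjusted p up to 0.1). For HMGCS1 and FDPS the SA effect lay below the guide effect, with differences of -1.22 and -0.87 (adjusted p = 0.000616 and 0.00555), and for the glycolytic ALDOC and PGK1 likewise, with -1.54 and -0.86 (adjusted p = 0.000821 and 0.00601). These 4 differences passed without any 1 of the 12 libraries. For CD14, at 16.9, 19.1 and 13.6 CPM in sgSCR and 54.9, 62.1 and 47.7 CPM in sgALAS1, and for ATF4, ASNS, GDF15, HMOX1 and CXCL8, the difference did not pass the test, which does not show that the effects are equal.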

How the data were processed

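Gene counts were deposited by the authors as whole numbers of reads per Ensembl identifier. Per the submitters' processing notes, the tools were bcl2fastq 2.17.1.14, cutadapt 1.14, HISAT2 2.0.4 and featureCounts of Subread 2.0.0, with edgeR 3.34.0 and limma 3.48.3, on hg19; settings, annotation release and strand are not named there. Columns were matched to samples by library name. Promoters come from RefSeq on GRCh38.p14, matched by symbol.

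The 6 libraries were filtered (filterByExpr), TMM-normalised and tested with edgeR 4.0.16 (quasi-likelihood, Benjamini-Hochberg) in R 4.3.3, without a block; totals ran from 4979473 to 7339843 reads. CPM of sgSCR and sgALAS1 come from a normalisation of all 12 libraries, in which the difference between arms was tested. DESeq2 1.42.0, limma-voom 3.58.1, other scalings and filters, and leaving out each library were alternatives. The test was tried on simulated counts.

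Members and gene lists were chosen with earlier results of these data known. Named genes are the 12 largest rises and falls that passed in every leave-one-out fit at 3 or more in mean log2 CPM, without overlap, the 8 largest gains and losses of CPM, the 8 smallest p-values, the 4 smallest p-values of each list and 2 of each role, a fixed set of heme and stress genes, and the 6 largest differences between arms at each end; not all are printed, and results for some genes are not reported here. ATF5, CCL2, CRELD2, CXCL1, DDIT4, EIF4EBP1, FADS1, FCGR2A, FDPS, GPT2, IARS1, IDS, LILRB4, MARS1, MDM2, ME1, MT1E, NDRG1, P4HA1, PCK2, PHGDH, RARS1, S100A4, S100A6, SLC39A14 and SQLE were chosen after their values were seen.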

Additional observations from a re-analysis of the deposited data

Results flagged for a closer look

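The SA effect and the guide effect differed by the test of the difference for 164 genes, and 26 of the genes named here are among them. Values are the SA log2 fold change minus the guide log2 fold change.

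The 3 largest positive differences among the named genes were those of ZNF521, BCL11A and CCND2, which were nearly silent in sgALAS1. ZNF521 had no read in sgALAS1, so its difference is given as a bound of at least 4.18 computed against 3 reads over the 3 libraries. BCL11A differed by 3.74 and CCND2 by 3.73, fitted values that rest on 4 and 7 reads over the 3 sgALAS1 libraries. FSCN1 and FLT3, with smaller differences of 1.44 and 1.42, were also lower in sgALAS1. These 5 genes fell in both arms and fell further with the guide, as did MT1G, with 0.82.

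ALAS1 rose with SA and fell with its own guide (2.16). FUCA1 (1.47), S100A9 (1.33) and NQO1 (1.01) had log2 fold changes of 2.19, 3.86 and 2.28 with SA and 0.71, 2.52 and 1.26 with the guide. FKBP4 (0.91) and UBE2S (0.67) rose with SA and had guide values of 0.02 and -0.05.

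Negative differences held several metabolic genes. The sterol and fatty acid genes HMGCS1, FDPS and SCD differed by -1.22, -0.87 and -0.78, with guide values of -0.12, -0.08 and -0.59. In the hypoxia and glycolysis lists, ALDOC differed by -1.54, ZNF395 by -1.10, BNIP3L by -1.04, NDRG1 by -0.87 and PGK1 by -0.86. The guide values of ALDOC, BNIP3L and NDRG1 were -0.01, -0.04 and -0.03.

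The other negative differences were those of IRF7 (-2.31), STC2 (-2.00), NT5E (-1.74), BCL2 (-0.93), CTSG (-0.83) and LILRB4 (-0.78). IRF7 fell with SA and rose with the guide, with a guide value of 1.08 (edgeR's test, adjusted p = 0.0144).

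The differences of ZNF521, BCL11A, CCND2, ALAS1, FSCN1, FLT3, NQO1, FKBP4, MT1G, PGK1, FDPS, BNIP3L, HMGCS1, ALDOC and IRF7 passed without any 1 of the 12 libraries. Those of the others did not pass in at least 1 such fit. The fits that lost the call included that without Vehicle replicate 2 for FUCA1, UBE2S, LILRB4, NDRG1, BCL2, ZNF395, NT5E and STC2. They included that without sgSCR replicate 1 for S100A9, SCD and CTSG. Of the 12 fits, the difference passed in 3 for LILRB4, 4 for STC2 and 6 for FUCA1 and BCL2. It passed in 8 for NDRG1, ZNF395 and NT5E, in 10 for UBE2S, S100A9 and SCD and in 11 for CTSG. Adjusted p-values reached 0.0531 for CTSG and 0.233 for STC2.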

How the results depend on the processing

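The number of genes with an adjusted p under 0.05 for SA against vehicle was 1302 to 1573 over a first set of alternatives. These were other size factors, other filters on low counts, all 12 libraries, the replicate block, DESeq2 and limma-voom. DESeq2 and limma-voom used their own tests and called 1388 and 1302 genes. Without genes of chromosomes 8, 13 and Y the number was 1203, and without mitochondrial genes and the most abundant identifier 1321. It was 785 to 1595 when 1 library was left out, with 757 of the 785 calls made without Vehicle replicate 2 shared with the 1339. The test against a 1.5-fold change called 248, of which 32.3% were higher, against 45.4% of the 1339. The median log2 fold change of all genes stayed within 0.01 of 0 under every alternative. The scalings take most genes to be unchanged, so this median was largely set by them. For the difference between arms the count was 109 (without sgSCR replicate 1) to 340 (without Vehicle replicate 1) when 1 library was left out, 226 with DESeq2 and 277 with no filter on low counts.

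Of 2552 values of 151 named genes under these alternatives, 2441 kept direction and side of the threshold, 108 lost the call (79 of them in the 1.5-fold test) and 1 gained it. Direction turned for 2 genes that had not passed, TFRC (log2 fold change -0.43 to 0.27 when 1 library was left out, above 0 without Vehicle replicate 3) and FDX1 (-0.0393 to 0.32, below 0 without SA replicate 3). No cause was tested. The named genes were chosen in part for passing in every leave-one-out fit or for small p-values. Their tally is thus raised by that choice and does not describe all genes. Over all genes tested, 1339 passed the test, and 531 passed it without any 1 library too.

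Deviations of same-numbered SA and vehicle libraries correlated at 0.11, 0.20 and -0.19, and those of differently numbered pairs at -0.39 to 0.31. These few values cannot tell whether replicate numbers mark a shared culture or day. With the number as a block, 1573 genes passed for SA against 1339 without it. For the difference between arms 227 passed against 164. Of the 151 named genes, chosen in part for small p-values, 0 lost their call for SA, and 0 of the 26 named differences did.

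With 3 libraries a group, small changes are mostly missed. On simulated counts for the SA comparison, 31.3% of genes changed 1.5-fold were recovered, 73.1% of those changed 2-fold and 95.5% of those changed 4-fold. Of 142 calls, 9 were false. The changed genes were drawn only from those with more reads, so recovery of genes with few reads was not measured. Deviations shared by many genes of a library were not simulated. The floor of 3 reads behind the bound for ZNF521 covers counting error only.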

Other observations

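Of 34 tested genes of the actin cytoskeleton and motility 4 rose and 3 fell (11.8% and 8.82%, against 4.71% and 5.66% of all genes), and 27 did not pass. When 1 library was left out, 8 rose without Vehicle replicate 1, and 1 fell without SA replicate 1, without SA replicate 3 or when Vehicle replicate 2 was omitted. FLNA, which cross-links actin filaments, was at 508, 396 and 346 CPM with vehicle and 845, 696 and 855 CPM with SA (log2 fold change 0.94, SE 0.14), and TAGLN2, an actin-binding protein, had 0.66 (SE 0.13). GSN, which severs filaments, was lower in every SA library, at 23.1, 22.5 and 18.6 CPM with vehicle and 7.902, 7.898 and 11.01 CPM with SA (log2 fold change -1.25, SE 0.24). PLAUR, the urokinase receptor of migrating monocytes, rose by 0.67 (SE 0.14) on the log2 scale.

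HLA-C, a class I antigen-presenting molecule, was at 182, 187 and 164 CPM with vehicle and 97.2, 123 and 104 CPM with SA (log2 fold change -0.72, SE 0.13), and was the 1 gene past edgeR's test among 16 of antigen presentation. That 1 gene is 6.25% of the 16, near the 5.66% of all genes that were lower. DESeq2 and limma-voom each called 2 of the 16 lower. By edgeR 2 were lower without SA replicate 2, 2 without Vehicle replicate 1 and 3 without Vehicle replicate 3. Of 27 interferon response genes 3 rose and 2 fell (11.1% and 7.41%, against 4.71% and 5.66% of all genes), with a median log2 fold change of 0.22. Leaving out either SA replicate 1 or 2, or either Vehicle replicate 2 or 3, left 1 that rose, and leaving out Vehicle replicate 1 gave 4. BST2, which tethers viruses at the cell surface, was higher (log2 fold change 0.70, SE 0.13), and IRF7, an interferon regulator, was lower, at 18.8, 16.9 and 15.02 CPM with vehicle and 9.09, 6.28 and 6.41 CPM with SA (log2 fold change -1.22, SE 0.26). WIPI1, which acts early in autophagosome formation, rose by 1.38 (SE 0.30), while the mitophagy receptors BNIP3 and BNIP3L fell. The zinc and iron transporter SLC39A14, on chromosome 8, had -1.01 (SE 0.21). NT5E, the ectoenzyme CD73 that makes adenosine, was at 15.2, 19.4 and 18.9 CPM with vehicle and 6.52, 7.49 and 7.07 CPM with SA (log2 fold change -1.34, SE 0.25).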
